A study of Mus musculus with 8 samples.

Results

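Fatty acid desaturases and elongases were followed through the whole back skin of Flg-deficient and control mice. The 9 genes were taken by name from the count table of 49671 genes: the stearoyl-CoA desaturases Scd1, Scd2 and Scd3, the elongases Elovl3, Elovl5 and Elovl6, and the front-end desaturase family Fads1, Fads2 and Fads3. RNA came from shaved back skin at 8 weeks of age, with 4 libraries labelled ko/ko at Flg (knockout) and 4 labelled wt/wt (wild type). Flg encodes the precursor of filaggrin, a protein of the cornified layer. The labels give no further allele, agent, strain or sex, do not say which stretch of Flg is altered, and do not say outright that each library is 1 animal, so p-values measure the spread between these libraries. Library totals were 18483242 to 38545957 counts in knockout and 23817186 to 34263154 in wild type. Flg itself stood at 22.3 to 27 CPM (counts scaled to a common library size) in knockout libraries and 46.5 to 66.9 CPM in wild-type libraries, without overlap. Keratinocyte, fibroblast and skeletal muscle markers were all detected in every group, so each value averages the epidermis, appendages, dermis, muscle and fat of the sample. In such tissue fewer cells of a type and less RNA per cell cannot be told apart.

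Stearoyl-CoA desaturases place the first double bond into saturated fatty acids and so make the monounsaturated chains of triglycerides, wax esters and phospholipids. Elongases add carbon units to an acyl chain, each with its own preferred substrates, and the Fads enzymes act closer to the carboxyl end, mainly on polyunsaturated chains. In mouse skin both dermal fat and sebaceous glands make lipid with these enzymes. Scd1 serves fat and sebaceous gland alike, and mice that lack it have shrunken sebaceous glands. Scd3 and Elovl3 are known from mouse sebaceous glands, Elovl3 also from brown fat.

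The Scd genes lie side by side on chromosome 19 and are close in sequence, which bears on how reads were shared among them. In mm10, Scd3 spans chr19:44203288-44244016 and Scd2 chr19:44293676-44306864 on the plus strand, and Scd1 spans chr19:44394451-44407709 on the minus strand. In the mm10 annotation of GENCODE M21, the aligned coding bases of Scd1 were 91.5% identical to those of Scd3, 90.3% to those of Scd2 and 84.6% to those of Scd4, the fourth mouse gene of the family. A pair of 60-base coding stretches shows the range, each lying within 1 exon of all 4 genes. The stretch that was most alike is in the fourth exon and held 59 positions identical in all 4 genes. Capitals mark the position that is not the same in all of them.
Scd1 (chr19:44401827-44401886, minus strand): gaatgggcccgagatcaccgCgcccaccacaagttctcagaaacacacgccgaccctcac
Scd2 (chr19:44299621-44299680, plus strand): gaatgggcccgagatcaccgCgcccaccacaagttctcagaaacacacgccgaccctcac
Scd3 (chr19:44235783-44235842, plus strand): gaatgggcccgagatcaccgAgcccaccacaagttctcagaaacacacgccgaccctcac
Scd4 (chr19:44338922-44338981, plus strand): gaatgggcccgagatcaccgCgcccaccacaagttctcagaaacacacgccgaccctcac

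The least alike stretch, in the third exon, had 30 differing positions, again in capitals, and against Scd1 there were 10 mismatches in Scd2, 18 in Scd3 and 16 in Scd4.
Scd1 (chr19:44403236-44403295, minus strand): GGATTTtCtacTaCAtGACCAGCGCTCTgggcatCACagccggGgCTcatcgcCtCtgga
Scd2 (chr19:44298040-44298099, plus strand): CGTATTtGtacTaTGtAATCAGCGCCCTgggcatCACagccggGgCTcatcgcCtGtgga
Scd3 (chr19:44234223-44234282, plus strand): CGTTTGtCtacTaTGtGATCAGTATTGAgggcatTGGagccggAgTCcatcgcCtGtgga
Scd4 (chr19:44337501-44337560, plus strand): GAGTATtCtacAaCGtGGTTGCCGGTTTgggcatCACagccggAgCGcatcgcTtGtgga

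A read from the most alike stretch can hardly be assigned to one of these genes, whereas one from the least alike stretch can. Over whole transcripts, 3.25% of the 75-base windows of Scd3 occurred exactly in Scd1, and 6.79% did so with up to 2 mismatches. The same shares for Scd4 against Scd1 were 1.3% and 3.77%. No 75-base window was shared between Elovl3, Elovl5 and Elovl6 or between Fads1, Fads2 and Fads3, even with 2 mismatches. Neither read length nor the treatment of multi-mapping reads is stated in the labels, so the counts of Scd2, Scd3 and Scd4 beside the far more abundant Scd1 carry an uncertainty that was not tested.

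Per length, Scd1 was by far the highest member in both genotypes. RPKM values, CPM divided by the deposited gene length in kilobases, allow a rough comparison of levels between genes. That length was 1508 bases for Fads2, whose GENCODE M21 transcript holds 3076 windows of 75 bases. For Elovl3 it was 1494 bases, beside 1807 windows. How far the places of these 2 genes rest on the lengths used was not tested. Scd1 averaged 1039 ± 304 RPKM in knockout and 404 ± 104 RPKM in wild type (SD, n = 4 each). By RPKM it ranked between place 12 and place 40 of all genes in the knockout libraries, and between place 46 and place 106 in the wild-type libraries. Elovl6 came second at 86.6 ± 11.2 RPKM in knockout and 77 ± 11.3 RPKM in wild type, followed by Scd3 at 73.4 ± 27.9 RPKM in knockout and 58 ± 40 RPKM in wild type. These neighbours overlapped in both genotypes. Elovl5 and Scd2 followed close together at 39.4 and 39.3 RPKM in knockout and 34.2 and 26.2 RPKM in wild type. Fads2 was lowest, at 6.02 ± 0.839 RPKM in knockout and 3.89 ± 1.12 RPKM in wild type. The order changed in 1 place: Elovl3 came eighth in knockout at 7.92 ± 3.07 RPKM, below Fads1 and Fads3, and sixth in wild type at 23.1 ± 10.5 RPKM, where it overlapped both Scd2 and Fads1.

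Of the 9 members, 2 rose in knockout skin in edgeR's quasi-likelihood test at an adjusted p under 0.05, where 1.41% of the 19099 genes tested were called in either direction and 0.712% were called higher. They were Scd1 and Scd2. None was called lower, against 0.702% of all genes. All 9 members passed the filter on low counts and were tested. Their median log2 fold change, knockout over wild type, was 0.34 with 8 of 9 above 0, beside -0.02 with 46.7% above 0 over all genes tested. In 4 members, Scd1, Scd2, Fads1 and Fads2, every knockout library lay above every wild-type library, against 5.57% of all genes. The reverse held for none of the 9, against 5.95% of all genes, and 11.5% of all genes were without overlap in either direction. The members were chosen with earlier results of these data known, and some of them ran together over the libraries. Their counts beside the shares of all genes are a description and not a test, and the members are not separate observations.

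Scd1, the main desaturase of saturated acyl-CoA in fat and sebaceous gland, rose 2.57-fold by mean CPM. Its values were 6592, 5526, 3091 and 4893 CPM in knockout replicates 1 to 4, against 1750, 1506, 2673 and 1881 CPM in wild-type replicates 1 to 4. The 2 groups did not overlap, and knockout replicate 3 and wild-type replicate 3 stood closest to the other genotype. Scd1 alone took 0.301% to 0.65% of all counts in knockout libraries, against 0.156% to 0.266% in wild-type libraries. On the log2 scale Scd1 differed by 1.36 ± 0.24 (SE), and edgeR gave an adjusted p of 0.0328. The call was not kept without knockout replicate 1, 2 or 4 (edgeR adjusted p = 0.0777, 0.113 and 0.109) or without wild-type replicate 1 or 4 (0.0852 and 0.0867), with log2 fold changes of 1.21 to 1.56 over all libraries left out. It was also not kept with no filter on low counts (edgeR adjusted p = 0.101).

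Scd2, a desaturase of the same reaction that is best known from brain and the skin of newborn mice, also rose. It had 201, 209, 210 and 237 CPM in knockout replicates 1 to 4, against 158, 110, 150 and 153 CPM in wild-type replicates 1 to 4. The knockout libraries lay close together and wild-type replicate 2 was the lowest of all. Scd2 differed by 0.58 ± 0.11 on the log2 scale (SE), for which edgeR gave an adjusted p of 0.0425. Leaving out any knockout replicate from 1 to 4 ended the call (edgeR adjusted p = 0.0807, 0.123, 0.0792 and 0.141), as did leaving out wild-type replicate 1 or 4 (0.0738 and 0.0822).

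Scd3, the desaturase known from sebaceous glands, did not separate by genotype. It had 314, 179, 359 and 166 CPM in knockout replicates 1 to 4, against 112, 147, 408 and 137 CPM in wild-type replicates 1 to 4. The highest library of all was a wild-type one, and knockout replicates 2 and 4 lay just above the other 3 wild-type libraries. Its log2 fold change was 0.34 ± 0.45 (SE, edgeR adjusted p = 0.715), and without wild-type replicate 3 it was 0.95 (edgeR adjusted p = 0.082). Per length, Scd3 made up 6.96 ± 4.28% of the transcripts of the 4 Scd genes in knockout and 11.1 ± 4.13% in wild type (SD, n = 4 each). Scd1 made up 89.4 ± 5.11% and 83.2 ± 2.91% of them in knockout and wild type, and both shares overlapped between genotypes.

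Scd4, a neighbour of the 3 that is not a member and is known from mouse heart, was near the lower end of detection. It had 120, 55, 51 and 67 counts in knockout replicates 1 to 4, against 27, 24, 31 and 14 counts in wild-type replicates 1 to 4. Its log2 fold change was 1.59 ± 0.26 (SE, edgeR adjusted p = 0.0231). The call ended without knockout replicate 1, 2 or 4 (edgeR adjusted p = 0.0719, 0.0878 and 0.0842) or wild-type replicate 1 or 4 (0.0671 and 0.0542). Its counts were 0.0479% to 0.0687% of the Scd1 counts in knockout and 0.0295% to 0.063% in wild type, a share that overlapped between genotypes, and whether Scd1 reads contributed to them was not tested.

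**Figure D1:**
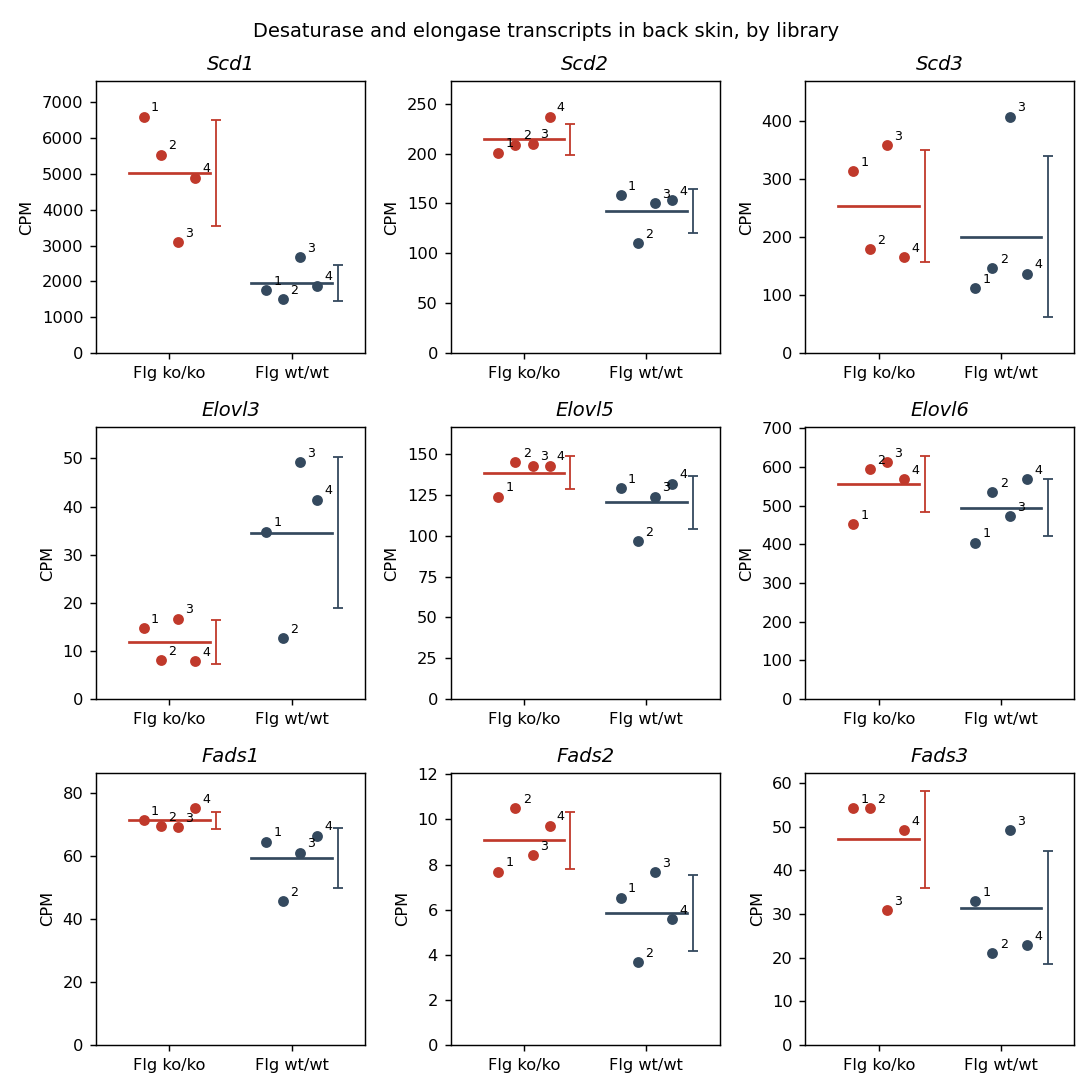
CPM of each of the 9 members in every library, with Flg ko/ko on the left and Flg wt/wt on the right of each panel. Points are libraries labelled by replicate number, horizontal lines are means and bars are ± 1 SD (n = 4 per group). Scd1 and Scd2 do not overlap between genotypes, Scd3 is highest in wild-type replicate 3 at 408 CPM, and Elovl3 is high in 3 of the 4 wild-type libraries.

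Elovl3 lies at chr19:46131897-46135307, Elovl5 at chr9:77917364-77984519 and Elovl6 at chr3:129532355-129638495, all on the plus strand. Among these elongases none passed the test, and they did not lie on the same side of 0. Elovl3, which lengthens saturated and monounsaturated chains into the very long range in mouse sebaceous glands and brown fat, had the lowest fold change of the 9 members. It had 14.7, 8.03, 16.7 and 7.82 CPM in knockout replicates 1 to 4, against 34.8, 12.7, 49.2 and 41.4 CPM in wild-type replicates 1 to 4. Wild-type replicate 2 fell within the knockout range, and the other 3 wild-type libraries were at least 2 times as high as any knockout library. The log2 fold change was -1.54 ± 0.41 (SE, edgeR adjusted p = 0.101). Without wild-type replicate 2 it was -1.81 and passed (edgeR adjusted p = 0.0142), and with all 8 libraries it passed in DESeq2 (adjusted p = 0.028) and in limma voom with quality weights (adjusted p = 0.0229). In that order, these fits called 504, 1185 and 2535 genes over all, beside 270 in the main fit.

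Elovl6, which lengthens palmitate and so supplies stearate to the Scd enzymes, did not pass the test either. It had 452, 595, 612 and 569 CPM in knockout replicates 1 to 4, against 404, 535, 473 and 569 CPM in wild-type replicates 1 to 4. The groups overlapped over most of their range, and the log2 fold change was 0.17 ± 0.13 (SE, edgeR adjusted p = 0.505). Elovl5, an elongase of polyunsaturated chains, had 124 to 145 CPM in knockout and 96.7 to 132 CPM in wild type. Its log2 fold change was 0.20 ± 0.10 (SE, edgeR adjusted p = 0.31). Per length, Elovl3 was 5.98 ± 2.46% of the 3 elongase transcripts in knockout and 16.9 ± 6.85% in wild type (SD, n = 4 each), with wild-type replicate 2 at 7.15% inside the knockout range.

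The Fads genes form a cluster elsewhere on chromosome 19, with Fads3 at chr19:10041548-10059671 (plus strand), Fads2 at chr19:10064164-10101503 (minus strand) and Fads1 at chr19:10182888-10196870 (plus strand). In this family all 3 log2 fold changes were above 0 and none passed the test. Fads2 encodes the delta-6 desaturase that opens the synthesis of long polyunsaturated fatty acids. It was at 7.68, 10.5, 8.41 and 9.73 CPM in knockout replicates 1 to 4, against 6.53, 3.68, 7.67 and 5.58 CPM in wild-type replicates 1 to 4. The groups did not overlap, but knockout replicate 1 and wild-type replicate 3 were nearly equal. Its log2 fold change was 0.63 ± 0.21 (SE, edgeR adjusted p = 0.143), and it passed in DESeq2 (adjusted p = 0.0479), in limma voom with quality weights (adjusted p = 0.0255) and, in edgeR, without wild-type replicate 3 (adjusted p = 0.0438). In that order, the 3 fits called 1185, 2535 and 1325 genes over all, beside 270 in the main fit.

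Fads1, the delta-5 desaturase of a later step, had 69.2 to 75.2 CPM in knockout, against 45.6 to 66.4 CPM in wild type. No overlap was seen, and its log2 fold change was 0.26 ± 0.11 (SE, edgeR adjusted p = 0.229). Fads3, which desaturates sphingoid bases, had 54.3, 54.3, 30.9 and 49.3 CPM in knockout replicates 1 to 4, against 33, 21, 49.2 and 22.8 CPM in wild-type replicates 1 to 4. Knockout replicate 3 and wild-type replicates 1 and 3 lay within the range of the other genotype. Its log2 fold change was 0.58 ± 0.28 (SE, edgeR adjusted p = 0.288), and 0.89 without wild-type replicate 3, where it passed (edgeR adjusted p = 0.0498). That fit called 1325 genes over all.

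**Figure D2:**
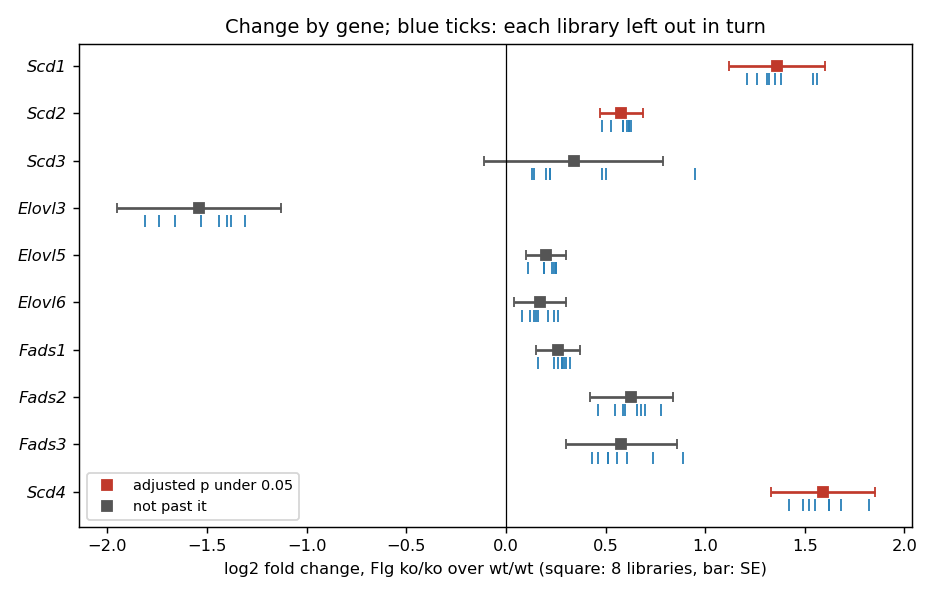
Log2 fold change, Flg ko/ko over wt/wt, for the 9 members and Scd4 (squares, with bars of ± 1 SE, n = 4 per group), and the same with each of the 8 libraries left out in turn (blue ticks). Scd1, Scd2 and Scd4 are past an edgeR adjusted p of 0.05, Elovl3 stands alone below 0 at -1.54, and Scd3 has the widest error of all at 0.45.

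Ratios of 2 members within a library need no scaling between libraries, and 4 were taken. In 3 of them a member of fat or broad tissues was set against Scd3 or Elovl3, and the fourth set Fads1 against Fads2. The log2 ratio of Elovl6 to Elovl3 counts was 4.94, 6.21, 5.19 and 6.18 in knockout replicates 1 to 4, against 3.54, 5.39, 3.26 and 3.78 in wild-type replicates 1 to 4. Only wild-type replicate 2 overlapped the knockout range. The difference was 1.64, or 3.11-fold, with a two-sided exact permutation p of 0.0857 and a Benjamini-Hochberg value of 0.171 over the 4 ratios. Scd1 to Scd3 had log2 ratios of 4.39, 4.95, 3.10 and 4.88 in knockout replicates 1 to 4, against 3.96, 3.36, 2.71 and 3.78 in wild-type replicates 1 to 4. That difference was 0.88 (exact permutation p = 0.143, adjusted 0.19), and knockout replicate 3 lay among the wild-type libraries. Scd2 to Scd3 averaged -0.17 ± 0.64 in knockout and -0.30 ± 0.85 in wild type (SD, n = 4 each), a difference of 0.13 (exact permutation p = 0.857, adjusted 0.857). Fads1 to Fads2 averaged 2.98 ± 0.20 in knockout and 3.37 ± 0.29 in wild type, a difference of -0.39 (exact permutation p = 0.0857, adjusted 0.171). None of the 4 passed, with or without adjustment. The smallest exact p that 4 against 4 libraries allow is 0.0286 before adjustment. Adjusted over the 4 ratios, 1 ratio alone at that p would not pass. The separate results of Scd1 and Scd3, or of Elovl6 and Elovl3, are not shown to differ from each other beyond the spread between libraries. With so few libraries the adjusted test had little room to show it.

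**Figure D3:**
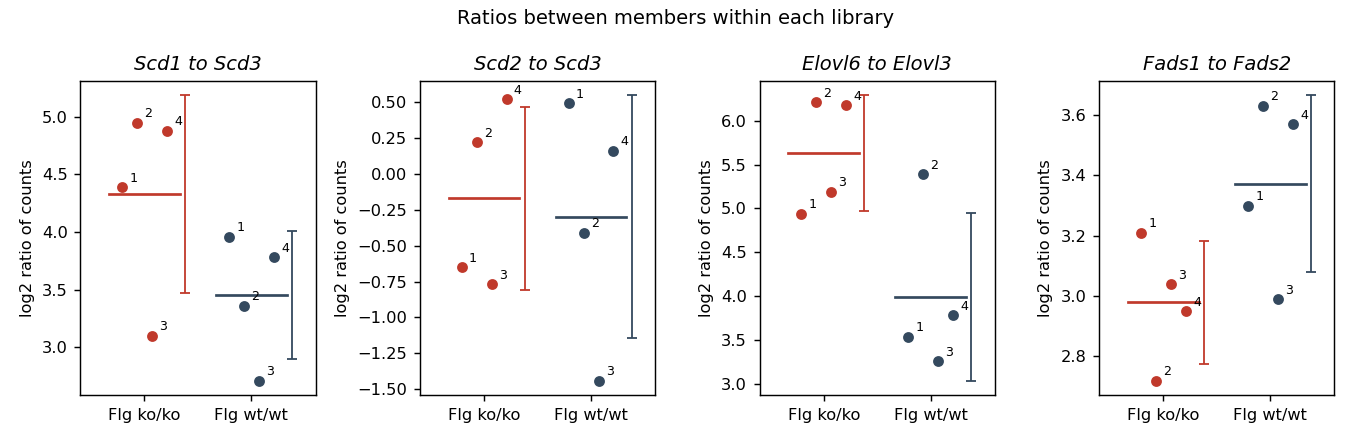
Log2 ratio of the counts of 2 members within each library, with Flg ko/ko on the left and Flg wt/wt on the right of each panel. Points are libraries labelled by replicate number, lines are means and bars are ± 1 SD (n = 4 per group). Elovl6 to Elovl3 differs by 1.64 between the means, with wild-type replicate 2 at 5.39 inside the knockout range.

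Scd3 ordered the 8 libraries just as the mean log2 CPM of the sebaceous gland markers did. The mean of 11 such markers, among them the wax synthase genes Awat1 and Awat2, the lipid enzyme gene Far2 and Krt79, was 6.60, 6.21, 6.64 and 6.18 log2 CPM in knockout replicates 1 to 4, against 5.77, 6.10, 6.97 and 5.90 log2 CPM in wild-type replicates 1 to 4. From high to low, both Scd3 and this mean ran through wild-type replicate 3, knockout replicates 3, 1, 2 and 4 and wild-type replicates 2, 4 and 1. The summed level of the markers was 1533 to 1879 CPM in knockout and 1586 to 2541 CPM in wild type. By this sum the order was another one, with knockout replicates 2 and 4 lowest of all at 1571 and 1533 CPM. None of the 11 markers was called in either direction, with 4 of 11 above 0 and a median log2 fold change of -0.05. With their mean as a covariate in edgeR, Scd1 was at 1.31 (adjusted p = 0.0269), Scd2 at 0.59 (adjusted p = 0.0331) and Scd3 at 0.10 (adjusted p = 0.658). That mean overlapped between genotypes and differed little between them, so this covariate had little room to move a genotype difference. Whether gland amount plays a part in Scd1 or Scd2 was not tested by it.

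Fads3 and Scd1 came closer to the order of the white adipocyte markers, taken by their mean log2 CPM. Knockout replicates 1, 2 and 4 were the top 3 libraries in all of these, and wild-type replicate 2 was the lowest. That library was also the lowest in Scd2, Elovl5, Fads1 and Fads2. The 14 such markers included Adipoq, Plin1, Lep and Retn, with log2 fold changes above 0, and Fabp4 and Aqp7, at -0.10 and -0.49. Their mean was 7.82, 7.95, 7.21 and 7.81 log2 CPM in knockout replicates 1 to 4. In wild-type replicates 1 to 4 it was 6.79, 6.18, 7.59 and 6.49 log2 CPM. Wild-type replicate 3 was above knockout replicate 3 in these markers and in Fads3, but not in Scd1. The summed level was 6321 to 8163 CPM in knockout and 4414 to 7971 CPM in wild type. By the sum, wild-type replicate 3 at 7971 CPM also stood above knockout replicate 4 at 7520 CPM. Of the 14 markers 12 were above 0 and 0 called, with a median log2 fold change of 0.82. With this mean as a covariate in edgeR, the log2 fold changes were 0.70 for Scd1 (adjusted p = 0.348), 0.42 for Scd2 (adjusted p = 0.373), 0.14 for Fads2 (adjusted p = 0.88) and -0.27 for Fads3 (adjusted p = 0.481). That fit called 2 of all 19099 genes, and none of the members. Scd4 was at 1.09 in it (adjusted p = 0.285) and Elovl3 at -1.85 (adjusted p = 0.261).

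Elovl3 followed neither marker set across genotypes. Within knockout it ran from replicate 3 over 1 and 2 to 4, as the mean of the sebaceous markers did. However, knockout replicates 1 and 3 lay above wild-type replicates 1 and 4 in that mean and below them in Elovl3. Of 5 brown adipocyte markers, which would bear on its other known site, 4 were tested and 0 called. The defining one, Ucp1, was too low to be tested and averaged 0.0622 CPM in knockout and 0.0414 CPM in wild type. All 8 keratinocyte markers had log2 fold changes below 0, with a median of -0.12 and 0 called, and a sum of 10887 to 12527 CPM in knockout and 12282 to 14136 CPM in wild type. Fibroblast markers, at a median log2 fold change of -0.04, and skeletal muscle markers, at 0.08, gave 0 calls in 6 genes each. Of 3 liver markers, 2 were tested and 0 called, Alb at 3.07 (edgeR adjusted p = 0.0578) and Ttr at -1.11 (edgeR adjusted p = 0.403). The 3 summed to 5.41 to 19.7 CPM in knockout and 0.909 to 4.38 CPM in wild type, without overlap. Markers of the hair shaft, which grows only in the active hair cycle, summed to 3.92 to 6.4 CPM in knockout and 4.19 to 7.25 CPM in wild type. No covariate for the epidermis was fitted. The white adipocyte mean itself ran largely with genotype, so that covariate cannot tell the amount of fat from genotype. The part of fat, gland and epidermis amounts in the members' values was not tested.

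**Figure D4:**
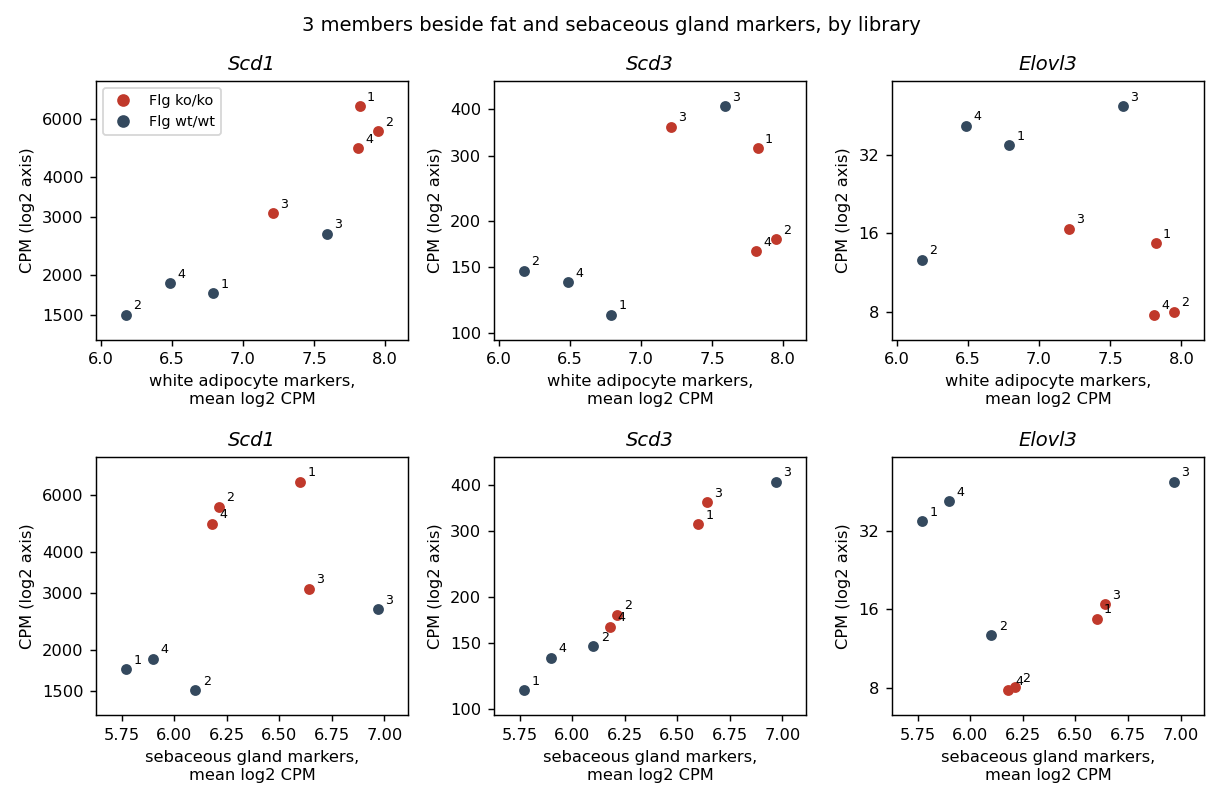
CPM of Scd1, Scd3 and Elovl3 (log2 axis) in each library against the mean log2 CPM of 14 white adipocyte markers (top) and of 11 sebaceous gland markers (bottom). Each point is a library, labelled by replicate number and coloured by Flg genotype. Scd3 lies in the same order as the mean of the sebaceous markers in all 8 libraries. Scd1 is highest in the 3 knockout libraries with the highest adipocyte marker mean.

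Genes whose log2 CPM ran most like 3 of the members over the 8 libraries were listed from 15149 genes, as a description of these libraries. For Scd1 they were G6pd2, Paqr9, Gm13142, Bnc2 and Cav1, with Pearson correlations of 0.986 to 0.997. Cav1, which encodes a caveolar coat protein, had 567 to 668 CPM in knockout and 424 to 493 CPM in wild type. For Scd3 they were Aadacl4, Gm5538, Lpcat3, Awat1 and Mup17, at 0.976 to 0.988. Awat1 makes wax esters and is itself one of the sebaceous markers, and it had 19.1 to 50.3 CPM in knockout and 13.8 to 64.1 CPM in wild type. For Elovl3 they were Lhpp, Cers4, Usp43, Fabp5 and Gm14328, at 0.983 to 0.989. Cers4, a ceramide synthase gene, had 151 to 182 CPM in knockout and 172 to 240 CPM in wild type, and the epidermal fatty acid binding protein gene Fabp5 had 44.6 to 61.8 CPM in knockout and 56.7 to 84.7 CPM in wild type. The libraries share genotype and tissue make-up, so these correlations are not independent of either.

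Of 12 genes of substrate supply and fatty acid activation, 3 rose, 0 fell and 9 did not pass, with a median log2 fold change of 0.23. Over all genes tested 0.712% were called higher. The fatty acid synthase gene Fasn did not pass but had the largest change of the list, 1.70 ± 0.40 (SE, edgeR adjusted p = 0.0757). It had 785 to 1478 CPM in knockout and 204 to 699 CPM in wild type, without overlap. Acaca, which makes malonyl-CoA for synthesis and elongation, had 97.4 ± 13.3 CPM in knockout and 38.4 ± 11.7 CPM in wild type (SD, n = 4 each), a log2 fold change of 1.34 ± 0.19 (SE, edgeR adjusted p = 0.0154). Acly, which makes cytosolic acetyl-CoA from citrate, changed by 0.58 ± 0.10 (edgeR adjusted p = 0.0266) and Acss2, which makes it from acetate, by 0.57 ± 0.11 (edgeR adjusted p = 0.0423). Each of the 3 calls ended without knockout replicate 2 (edgeR adjusted p = 0.0687, 0.0993 and 0.123) or 4 (0.0676, 0.107 and 0.113) or wild-type replicate 4 (0.0512, 0.0698 and 0.0922), in the order Acaca, Acly, Acss2. Their log2 fold changes in these fits were 1.28 to 1.33 for Acaca, 0.57 to 0.58 for Acly and 0.56 to 0.62 for Acss2. The calls of Acly and Acss2 also ended without knockout replicate 1 (0.0726 and 0.105) or wild-type replicate 1 (0.0708 and 0.0927), and that of Acss2 without knockout replicate 3 (0.0792). With the white adipocyte covariate in edgeR the log2 fold change was 0.81 for Acaca (adjusted p = 0.0747), 0.38 for Acly (adjusted p = 0.263) and 0.38 for Acss2 (adjusted p = 0.366).

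The partner enzymes that complete each round of elongation gave 0 calls in 6 tested genes of 7, with a median log2 fold change of -0.09. The 2 with the smallest p were Hacd1 at -0.68 ± 0.18 (SE, edgeR adjusted p = 0.0947) and Hacd3 at -0.21 ± 0.08 (edgeR adjusted p = 0.209), both dehydratases of that cycle. Cytochrome b5 and its reductases, which pass electrons to the desaturases, gave 0 calls in 6 genes with a median of 0.05. Cyb5r4 stood at -0.13 ± 0.10 (edgeR adjusted p = 0.505) and Cyb5r3 at 0.13 ± 0.11 (edgeR adjusted p = 0.514). Of the other elongases, Elovl1 was at -0.08 ± 0.08 (edgeR adjusted p = 0.616) and Elovl4, which builds the ultra-long chains of the epidermal barrier, at -0.17 ± 0.21 (edgeR adjusted p = 0.698). That list gave 0 calls in 3 tested genes of 4, with a median of -0.08. Of the other desaturases 1 of 4 was called, Scd4, with a list median of -0.11, and next was Degs2, a ceramide desaturase and hydroxylase, at -0.40 ± 0.23 (edgeR adjusted p = 0.366).

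Of 15 regulators of desaturase and elongase transcription 1 rose and 0 fell, with 12 of 15 above 0 and a median log2 fold change of 0.17. Mlxipl, which encodes the carbohydrate response factor ChREBP, had 48.9 ± 5.51 CPM in knockout and 31.2 ± 6.07 CPM in wild type (SD, n = 4 each). Its log2 fold change was 0.65 ± 0.14 (SE, edgeR adjusted p = 0.0483). The next by p was Pparg, the master regulator of fat cells that sebocytes also use, at 0.80 ± 0.19 (edgeR adjusted p = 0.0722). The call of Mlxipl was kept without wild-type replicate 3 (edgeR adjusted p = 0.00642) and ended without knockout replicates 1 to 4 (0.116, 0.135, 0.0613 and 0.156), without wild-type replicates 1, 2 and 4 (0.113, 0.0612 and 0.0995) with library totals as the only scaling (0.0505), and with the white adipocyte covariate (0.454).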

How the data were processed

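The submitters' processing notes name GSNAP, the mm10 build and featureCounts 1.6.2. What the authors deposited are whole-number counts for each gene, not normalized, next to a column of gene lengths in bases. The labels name both a SMART protocol and a strand-specific kit, and the strand setting of the counting is not given in the sources used here. Exon overlaps with other genes were 61 bases in Scd2 (Mir5114, same strand) and 34 bases in Elovl6 (Gm35986, opposite strand). The table held 49763 features, of which 92 spike-in rows were left out, and 49326 of 49671 genes matched a GENCODE M21 symbol. Replicate numbers follow accession order and only name a library.

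The 8 libraries were fitted in edgeR 4.0.16 (R 4.3.3) with filterByExpr, TMM scaling and the robust quasi-likelihood test with genotype as the only term. P-values were adjusted by Benjamini-Hochberg over all 19099 tested genes and called under 0.05. SE was derived from the F statistic. CPM used TMM-scaled library sizes, log2 CPM a prior count of 2, and log2 ratios 0.5 added to each count. The fit was tested on simulated data. Alternatives used DESeq2 1.42.0 and limma 3.58.1, other scalings and filters, marker covariates and leave-one-out fits. Scd stretches were the 2 extremes of 657 windows compared, aligned with Biopython 1.88. The 9 members and 14 further lists, with 120 entries of which 1 matched no symbol, were chosen with earlier results of these data known, so their p-values are not independent of that choice. Named genes are the members, the called genes of each pathway list or else its 2 smallest p, and the 5 genes most like Scd1, Scd3 and Elovl3 among those whose log2 CPM averaged 1 or more. Fasn was named in addition, for the largest log2 fold change of its list.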

Additional observations from a re-analysis of the deposited data

Results flagged for a closer look

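In 3 of 30 groups of 4 libraries examined, 1 library stood apart from the other 3 by Dixon's test of its gap against the group's range, where chance flags about 1 group in 20. The gap was 0.921 of the range for Elovl5, 0.882 for Scd3 and 0.842 for Scd2. Elovl5 was low in knockout replicate 1 at 124 CPM, against 143 to 145 CPM in the other knockout libraries. Scd3 was high in wild-type replicate 3 at 408 CPM, against 112 to 147 CPM in the other wild-type libraries, and without that library its log2 fold change was 0.95. Scd2 was low in wild-type replicate 2 at 110 CPM, against 150 to 158 CPM in the other wild-type libraries, and without that library its log2 fold change was 0.48 (edgeR adjusted p = 0.0176).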

How the results depend on the processing

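Of all genes, 270 were called, beside 1185 in DESeq2, 2535 in limma voom with quality weights, 502 with no filter on low counts, 2 with the white adipocyte covariate and 487 with the sebaceous covariate. Leaving out 1 library gave 11 genes (without knockout replicate 2) to 1325 (without wild-type replicate 3). The number of members called, 2 of 9, was 4 in DESeq2 and 4 in limma voom (Scd1, Scd2 and Fads2 higher, Elovl3 lower), 1 with no filter (Scd2) and 0 with the white adipocyte covariate. Over the libraries left out it ran from 0 to 4, with the 4 reached without wild-type replicate 3 (Scd1, Scd2, Fads2 and Fads3). Other scalings kept Scd1 and Scd2 as the called members. The Scd1 log2 fold change ranged from 0.70 to 1.56 and that of Scd2 from 0.42 to 0.63, each past the threshold in 9 of 16 alternatives. Elovl3 was below 0 in all 16, from -1.85 to -1.31, and Fads2 above 0 in all 16, from 0.14 to 0.78. With the white adipocyte covariate Scd3 was at -0.07 and Fads3 at -0.27, both reversed in sign. The log2 ratio of Scd2 to Scd3 ran from -0.25 to 0.39 over the libraries left out. With 7 libraries the smallest exact p is 0.0571, so no ratio could pass with a library left out, and with 2 added to each count none of the 4 passed. The causes of these shifts were not tested. No paired analysis was possible because the replicate numbers come from accession order and pair no libraries. At 4 libraries a group and a common biological variation of 15.9%, Fads2, the lowest member per length in both genotypes, rests on 196 to 292 counts a library in knockout and 93 to 226 in wild type.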
